A study of Mus musculus with 6 samples.

Results

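The messenger RNA levels of 36 genes of glycolysis and the pentose phosphate pathway were examined in DC2.4, an established mouse dendritic cell line. The genes were chosen by their place in the pathway, from hexose uptake to lactate export, and found by symbol among the 54532 genes of the deposited count table. All 36 symbols had a row, and gene positions are given as in that table. Its genome build is not given in the sources used here, and 98.3% of the genes it shares with GENCODE M21, an annotation of GRCm38, have the same start and end there. The design text gives the overexpression of Vdbp in dendritic cells as the subject of the series. The groups were 3 libraries labelled Vdbp, from DC2.4 cells transfected with a Vdbp overexpression vector, and 3 libraries from DC2.4 cells that received the empty vector. The labels name pTT5 as the vector in both groups, with passage 48 h after transfection and selection afterwards, so the controls underwent the same steps without the insert. Vdbp is the vitamin D-binding protein, and the symbol of its mouse gene is Gc. Whether a group's 3 libraries stem from separate cultures is not stated in the labels, so its spread may be technical, and p-values here cover no more than that spread.

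Glycolysis splits glucose into pyruvate in the cytosol and yields ATP and NADH, and lactate dehydrogenase then regenerates NAD+ by turning pyruvate into lactate. The pentose phosphate pathway leaves glycolysis at glucose-6-phosphate, makes NADPH in its oxidative arm and exchanges sugar phosphates with glycolysis in its non-oxidative arm. Dendritic cells and macrophages are known to raise glycolysis when microbial products activate them, and NADPH serves their oxidant production and lipid synthesis.

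The libraries labelled Vdbp had totals of 16506563, 16529104 and 15563800 counts (replicates 1, 2 and 3), and the empty-vector libraries of 16376659, 16621938 and 16710975. Gc had 0 counts in all 6 libraries, where 3 counts, the limit that a count of 0 allows, come to 0.180 to 0.193 CPM (counts scaled to a common library size). The counts therefore do not show the overexpression that the labels name, and the reason was not tested. They give no means to tell the groups apart by Gc, and the groups are called by their labels. Among the dendritic markers, Cd74 (143 ± 13.8 FPKM in libraries labelled Vdbp and 119 ± 3.67 FPKM in empty-vector libraries; SD, n = 3 each) and Itgax (10.6 ± 1.06 FPKM in libraries labelled Vdbp and 10.3 ± 0.473 FPKM in empty-vector libraries) were present, but Flt3, H2-Aa, H2-Ab1 and Batf3 lay below 0.1 FPKM in both groups. Of 10 dendritic markers 6 were tested and 0 were called. In the libraries labelled Vdbp 3 were higher (Cd74, Itgax and Zbtb46) and 3 lower (Irf8, Ptprc and Cd83). Cd74 alone did not overlap between the groups, and 5.26% of all tested genes were higher in this way. Summed over the 10, the level was 479, 461 and 487 CPM in the libraries labelled Vdbp, against 461, 495 and 446 CPM in the empty-vector libraries, and the groups overlapped. The macrophage marker Lyz2 was far more abundant, at 1197 ± 47.1 FPKM in libraries labelled Vdbp and 1483 ± 148 FPKM in empty-vector libraries. Summed over 6 macrophage markers, of which 5 were tested, 0 were called and Mertk was near 0, the level was 4366, 4048 and 4194 CPM in the libraries labelled Vdbp, against 4916, 4837 and 4284 CPM in the empty-vector libraries, and the groups overlapped. Lyz2 and Adgre1 were lower in every library labelled Vdbp than in any empty-vector library, as were 5.61% of all tested genes, while Csf1r, Cd68 and Fcgr1 overlapped. Summed over 4 neutrophil markers, of which S100a8 alone was tested and S100a9 had 0 counts, the level was 2.24, 3.35 and 3.07 CPM in the libraries labelled Vdbp, against 3.38, 3.44 and 3.90 CPM in the empty-vector libraries. The part of these markers in the results was not tested. Summed markers of T cells, B cells, fibroblasts, epithelium and red cells reached at most 0.703 CPM in any library. In these bulk libraries fewer cells of a type and less RNA per cell cannot be told apart.

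Sequences of 3 promoters and of 1 stretch of a coding region are given, because the values described further on turn on these genes: Pfkfb3 and Pgp had the smallest p-values among the tested genes of the pathway, Ldha holds the most motif copies of all their promoters, and Gapdh shares most of its sequence with other genes. The promoters are RefSeq windows on GRCm38.p6, from 250 bases before to 50 after a transcript start, and 34 of the 36 genes had at least 1 window (Slc2a3 and Eno1b had none). Capitals mark ACGTG and GCGTG, the cores of the element bound by hypoxia-inducible factors, and CACGTG, an E-box that contains ACGTG, each read on both strands, so that CACGT and CACGC are the same cores on the other strand.
Pfkfb3, chr2:11502041-11502340, minus strand: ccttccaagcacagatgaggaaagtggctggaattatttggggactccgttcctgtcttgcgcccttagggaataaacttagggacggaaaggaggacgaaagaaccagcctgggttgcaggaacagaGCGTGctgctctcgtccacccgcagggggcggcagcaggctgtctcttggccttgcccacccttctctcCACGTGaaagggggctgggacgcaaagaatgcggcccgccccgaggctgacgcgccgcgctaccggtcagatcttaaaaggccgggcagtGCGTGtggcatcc
Pgp, chr17:24470176-24470475, plus strand: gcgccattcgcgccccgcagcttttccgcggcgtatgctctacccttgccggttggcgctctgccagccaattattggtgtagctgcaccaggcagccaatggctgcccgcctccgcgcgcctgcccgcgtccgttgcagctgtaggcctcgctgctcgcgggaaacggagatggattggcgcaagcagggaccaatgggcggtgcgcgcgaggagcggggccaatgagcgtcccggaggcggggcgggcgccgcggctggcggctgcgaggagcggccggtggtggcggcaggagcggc
Ldha, chr7:46845554-46845853, plus strand: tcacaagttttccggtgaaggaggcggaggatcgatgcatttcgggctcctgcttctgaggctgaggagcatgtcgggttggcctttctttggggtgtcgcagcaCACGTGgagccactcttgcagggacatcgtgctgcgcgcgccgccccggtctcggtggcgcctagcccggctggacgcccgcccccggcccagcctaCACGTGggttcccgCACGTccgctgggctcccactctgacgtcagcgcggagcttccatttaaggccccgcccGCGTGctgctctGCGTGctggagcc
Gapdh, positions 982 to 1081 of its principal GENCODE M21 transcript (gene on chromosome 6, GRCm38), no capitals: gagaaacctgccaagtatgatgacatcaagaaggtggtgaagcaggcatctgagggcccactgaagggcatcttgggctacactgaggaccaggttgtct
The Ldha window held ACGTG 5 times, of which 4 were the 2 strands of 2 CACGTG sites, and GCGTG 2 times. The Pfkfb3 window held ACGTG 2 times, both in 1 CACGTG site, and GCGTG 2 times, and the Pgp window held none of these motifs. Ldha and Pfkfb3 have 2 windows each, of which the one with more motif copies is printed. The other Pfkfb3 window (chr2:11553880-11554179), at the annotated 5′ end of the gene, held ACGTG 1 time and neither GCGTG nor CACGTG, and the other Ldha window held GCGTG 2 times and neither of the others. Of the 34 genes, 17 (50%) had ACGTG in at least 1 window, against 21.8% of 27025 genes, 23 (67.6%) had GCGTG, against 35.2%, and 5 (14.7%) had CACGTG, against 8.09%. By window, the shares were 40.4% of 52 against 19.6% of 32851 for ACGTG, 55.8% against 32.4% for GCGTG and 9.62% against 7.15% for CACGTG. Besides Pgp, the genes with neither ACGTG nor GCGTG in any window were Eno2, Gpi1, Rpe and Tpi1. These are matches of letters in a fixed window, with no measure of binding. The comparison is with all genes that have a window and was not matched for expression or GC content. The median of the pathway genes lay above 71.1% of tested genes in GC content of the longest transcript, and above 92.2% in mean CPM.

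DC2.4 cells held large amounts of the transcripts of most later steps of glycolysis, from aldolase to pyruvate kinase, and of lactate dehydrogenase A. Gapdh was listed as an exception among these steps, at 14.2 ± 20.4 FPKM over the 6 libraries (SD, n = 6). It had 55.8 FPKM in Vdbp replicate 2 and 5.17 to 6.84 FPKM in the other libraries. All 100-base windows of its coding sequence also occur in other genes, and how reads that match several genes were counted is not given. Its value therefore cannot be read as the level of its transcript. On the deposited scale of FPKM (fragments scaled by gene length and library size, a level per length), Pkm, the muscle-type pyruvate kinase gene, was highest at 981 ± 143 FPKM over the 6 libraries (SD, n = 6). Pgk1, phosphoglycerate kinase, followed at 899 ± 55.6 FPKM, Eno1, enolase 1, at 744 ± 81.6 FPKM, Ldha, lactate dehydrogenase A, at 742 ± 66.4 FPKM and Aldoa, aldolase A, at 699 ± 90.3 FPKM. Pgam1, phosphoglycerate mutase, stood at 613 ± 52.2 FPKM and Tpi1, triosephosphate isomerase, at 424 ± 52.6 FPKM. The ranges of neighbours in this order overlapped from Pkm down to Pgam1, while Pgam1 and Tpi1, and Tpi1 and the next gene, did not overlap. A gap followed below Tpi1: the next gene, the lactate exporter Slc16a3, had 120 ± 22.3 FPKM. The genes of the pentose phosphate pathway lay between 4.48 ± 0.403 FPKM (Rpia, ribose-5-phosphate isomerase) and 114 ± 5.18 FPKM (Taldo1, transaldolase). The lowest detected levels were those of Slc2a3 (2.13 ± 0.226 FPKM), Pfkfb1 (1.20 ± 0.174 FPKM) and Pfkfb2 (0.865 ± 0.0941 FPKM), and Ldhb, the other subunit of lactate dehydrogenase, had 0 counts in all 6 libraries, which allows up to 3 counts per library. The level of a gene per length depends on the length used: with that of the principal GENCODE M21 transcript, Pkm (2016 FPKM) and Eno1 (1973 FPKM) led, and Pgk1 (1105 FPKM) was the fifth.

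**Figure D1:**
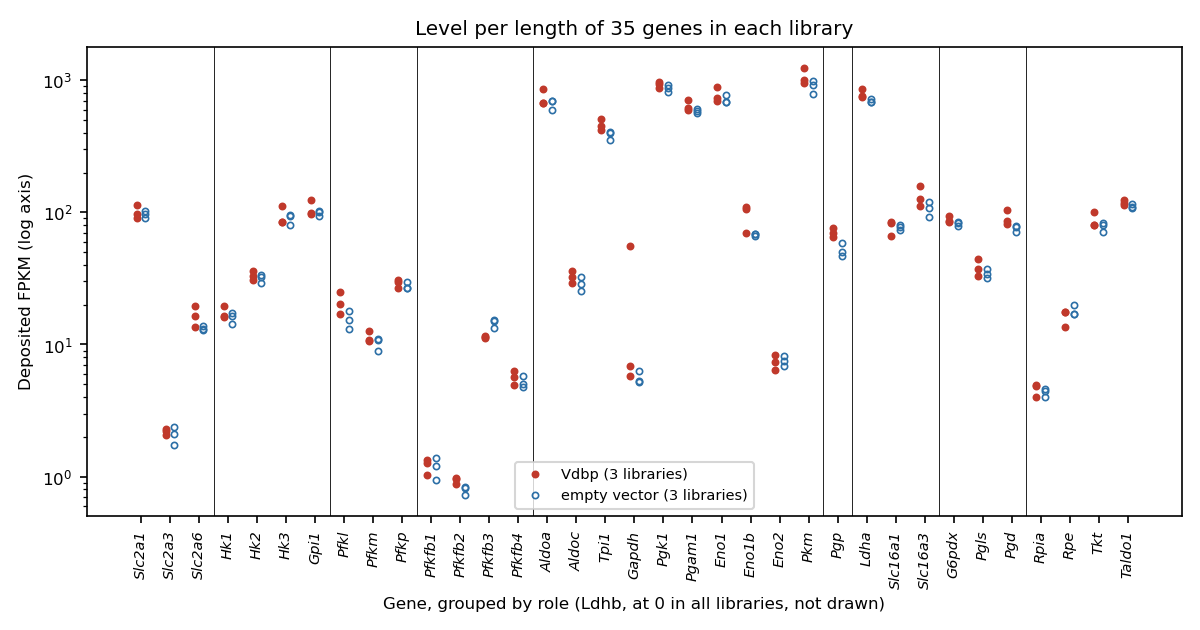
Deposited FPKM (vertical log axis) of the 35 genes with counts, grouped by role and separated by vertical lines; filled points are the 3 libraries labelled Vdbp and open points the 3 empty-vector libraries. Pkm, Pgk1, Eno1, Ldha, Aldoa, Pgam1 and Tpi1 lie above all other genes in both groups, and 1 library labelled Vdbp lies far above the other 5 in Gapdh.

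Within each family 1 or 2 isoenzymes supplied most of the RNA, and the makeup was similar in both groups for most families. Hk3 held 64.8 ± 1.84% of the hexokinase FPKM in the libraries labelled Vdbp and 65.2 ± 0.318% in the empty-vector libraries (SD, n = 3 each, as for all shares here). Hk2, the hexokinase most often linked to induced glycolysis, held 23.2 ± 1.54% in the libraries labelled Vdbp and 23.1 ± 0.296% in the empty-vector libraries, and Hk1 the remainder. The order of Hk1 and Hk2 depends on the length used. With principal transcript lengths Hk1 held 21.3% in the libraries labelled Vdbp and 20.7% in the empty-vector libraries. Hk2 then held 19.9% in the libraries labelled Vdbp and 19.95% in the empty-vector libraries. Hexokinases phosphorylate glucose on entry, and Hk3 is the isoenzyme typical of myeloid cells. Of the aldolase FPKM Aldoa held 95.7 ± 0.307% in the libraries labelled Vdbp and 95.8 ± 0.214% in the empty-vector libraries. Of the sum of Eno1 and Eno2, Eno1 held 99.05 ± 0.0928% in the libraries labelled Vdbp and 98.96 ± 0.0421% in the empty-vector libraries. Ldha held all of the lactate dehydrogenase FPKM. Among the 3 hexose carriers Slc2a1 held 84.3% in the libraries labelled Vdbp and 86.3% in the empty-vector libraries.

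In 2 families some shares did not overlap between the libraries labelled Vdbp and the empty-vector libraries. The shares of Pfkm, Pfkfb1 and Pfkfb4 in these families overlapped, as did those of all other families. Pfkfb3 held 58.7%, 58.5% and 61.2% of the FPKM of the 4 Pfkfb genes in the libraries labelled Vdbp, against 68.3%, 69.8% and 63.1% in the empty-vector libraries. Pfkfb2 held 4.46%, 5.11% and 5.16% in the libraries labelled Vdbp, against 3.22%, 3.75% and 3.91% in the empty-vector libraries, and neither share overlapped between the groups. Pfkl, the liver-type phosphofructokinase, held 36.4%, 33.3% and 31.3% of the phosphofructokinase FPKM in the libraries labelled Vdbp, against 28.8%, 26.9% and 30.7% in the empty-vector libraries. These Pfkl shares did not overlap. Neither did those of Pfkp, the platelet type, at 44.9%, 48.9% and 49.2% in the libraries labelled Vdbp against 50.6%, 54.7% and 50.5% in the empty-vector libraries. With principal transcript lengths the Pfkp share was 65.3 ± 2.35% in the libraries labelled Vdbp and 69.4 ± 2.09% in the empty-vector libraries, so its size depends on the length used. The shares of a family add up to a fixed whole, so a lower Pfkp share goes with a higher Pfkl share. These 2 are not independent observations, and neither are those of Pfkfb3 and Pfkfb2. No test was run on the shares: with 3 against 3 libraries an exact two-sided permutation test cannot go below p = 0.10. The shares described were picked because they did not overlap, and no rate over shares of other genes was computed to set beside them.

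**Figure D2:**
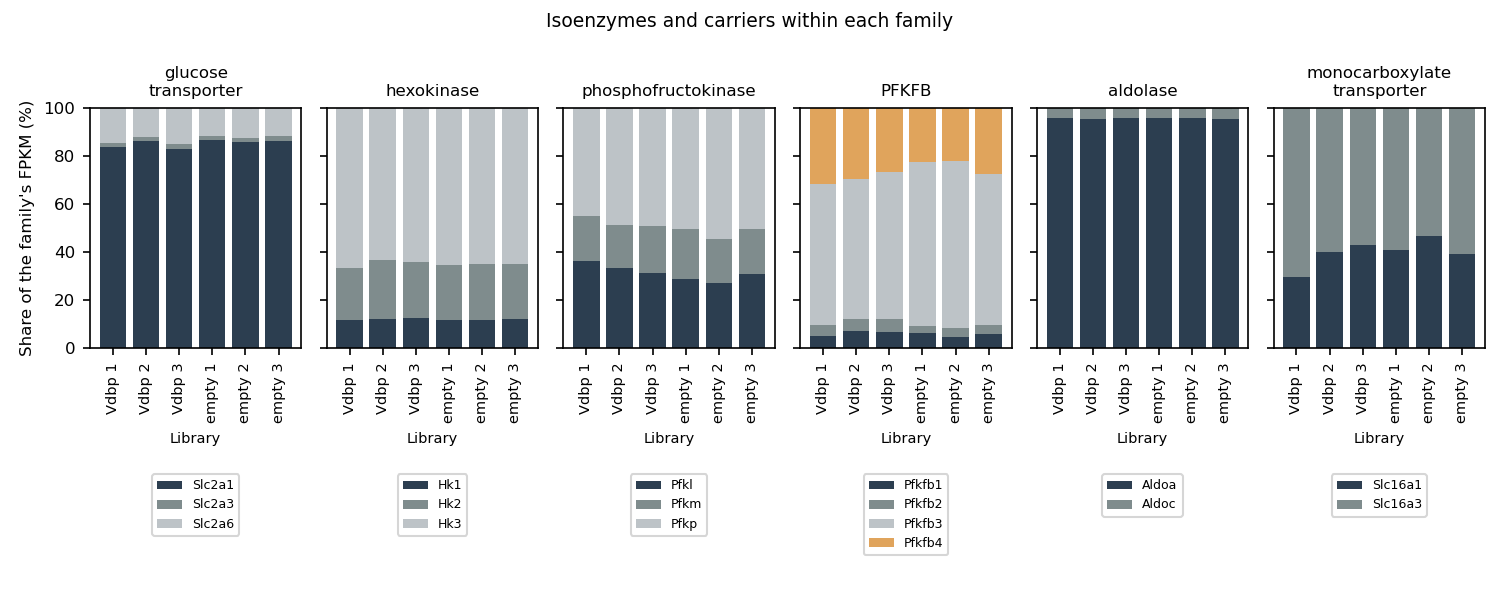
Share of the summed FPKM of 6 families (vertical axis, percent) held by each gene in each library, with the libraries labelled Vdbp left of the empty-vector libraries. The Pfkfb3 share lies at 58.5% to 61.2% in the libraries labelled Vdbp and at 63.1% to 69.8% in the empty-vector libraries, while the hexokinase and aldolase bars look alike in both groups.

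None of the genes passed the test between the groups. In edgeR's quasi-likelihood test with Benjamini-Hochberg adjustment over 12844 tested genes, 0 of the 35 tested genes of the pathway had an adjusted p under 0.05, against 0% of all tested genes, and their adjusted p-values lay between 0.781 and 0.968. Ldhb was not tested. DESeq2 called 0 of 34, against 0.0856% of the genes to which it gave an adjusted p. It gave none to Gapdh. At an unadjusted p under 0.05 the edgeR test gave 9 pathway genes, against 5.35% of all tested genes: 8 were higher, against 2.81%, and 1 was lower, against 2.54%. The 3 libraries labelled Vdbp lay all above the 3 empty-vector libraries in 7 genes (5.26% of all tested genes did so) and all below them in 1 gene (5.61%), together 8 genes, against 10.9% of all tested genes.

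Most of the genes had a small positive log2 fold change (Vdbp over empty vector). The median was 0.12, a fold of 1.09, against −0.01 over all tested genes, and 32 of 35 (91.4%) were above 0, against 48.7% of all tested genes. The values ran from −0.36 to 2.03 with a median SE of 0.12. The 95% confidence interval lay within a 1.5-fold difference in either direction in 28 genes and within 2-fold in 34, so larger differences are outside the intervals for those genes. Together the 36 genes held 2.73%, 2.39% and 2.31% of all counts in the libraries labelled Vdbp, and 2.26%, 2.06% and 2.32% in the empty-vector libraries. The ranges overlapped, and the means were 2.47 ± 0.220% in the libraries labelled Vdbp and 2.21 ± 0.134% in the empty-vector libraries (SD, n = 3 each).

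A pair of libraries, Vdbp replicate 1 and empty-vector replicate 2, stood apart and are called the outlying libraries here. Of the 35 tested genes, 26 were highest in Vdbp replicate 1, where 32.8% of all tested genes were highest, and 22 were lowest in empty-vector replicate 2, where 24.5% of all tested genes were lowest. The median deviation of the 35 genes from their mean was 0.23, 0.03 and −0.03 on the log2 scale in Vdbp replicates 1, 2 and 3, against −0.03, −0.17 and 0.00 in empty-vector replicates 1, 2 and 3. Without Vdbp replicate 1 the median log2 fold change was 0.05 (28 higher), without empty-vector replicate 2 it was 0.09 (29 higher), and without both it was 0.03 (21 higher and 14 lower). Leaving out both was not planned, and the pair was picked after these values were seen. Removing the Vdbp library with the highest median deviation and the empty-vector library with the lowest lowers a positive difference by itself. The values without both, also those of single genes further on, are therefore descriptions and no test. The same libraries stood at the ends of a trend with GC content: across tested genes, which are not independent replicates, Spearman's rho between a gene's deviation and its GC content was 0.721 in Vdbp replicate 1 and −0.613 in empty-vector replicate 2, and between −0.394 and 0.067 in the other 4. The pathway genes had a median GC content of 53.5%, above that of 71.1% of all tested genes, whose median was 49.5%. With an offset per library that removed its trend with gene length and GC content, the median log2 fold change was 0.09, with 28 genes higher and 7 lower. After that offset 8 genes lay all above and 1 all below the empty-vector libraries, against 13.3% of all tested genes in either direction.

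**Figure D3:**
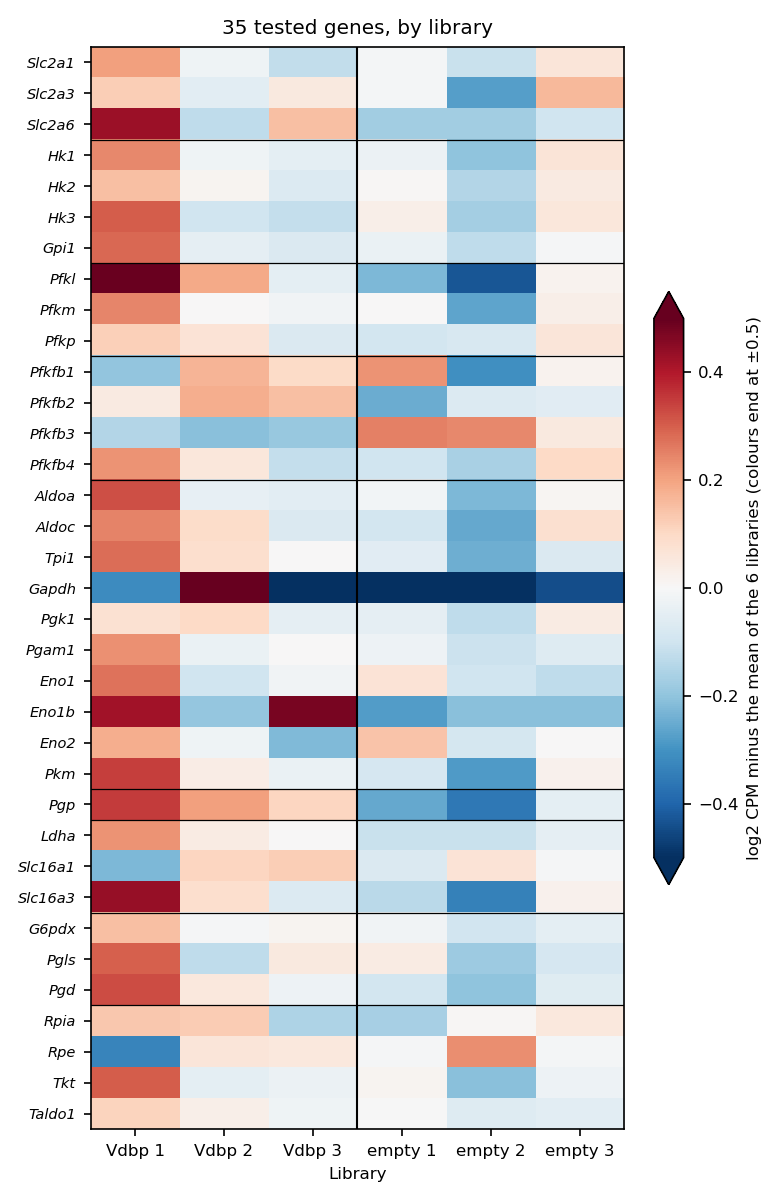
Deviation of log2 CPM from the mean of the 6 libraries (colour, ending at ±0.5) for the 35 tested genes in rows grouped by role, with the libraries labelled Vdbp in the left 3 columns and the empty-vector libraries in the right 3. The column of Vdbp replicate 1 is mostly red (26 genes highest there) and that of empty-vector replicate 2 mostly blue (22 lowest there), while Pfkfb3 is blue in all 3 libraries labelled Vdbp.

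The hexose carriers had log2 fold changes of 0.05 to 0.31, all 3 above 0, and none was called. Slc2a1, the main basal glucose carrier, had 399, 341 and 318 CPM in the libraries labelled Vdbp, against 343, 320.0 and 360.2 CPM in the empty-vector libraries. The groups overlapped, and its log2 fold change of 0.05 (SE 0.11) became −0.10 without both outlying libraries. Slc2a6, a hexose carrier of macrophages found on lysosomes in the mouse, had 63.8, 43.4 and 52.6 CPM in the libraries labelled Vdbp, against 42.04, 42.1 and 44.4 CPM in the empty-vector libraries. Only Vdbp replicate 2 reached into the empty-vector range, and the log2 fold change was 0.31 (SE 0.14, unadjusted p 0.0385 and adjusted p 0.781 in edgeR's quasi-likelihood test). It was 0.17 without Vdbp replicate 1, 0.15 without both outlying libraries and 0.16 with the length and GC offset.

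The genes of the first steps inside the cell, Hk1, Hk2, Hk3 and Gpi1, lay closest together, at log2 fold changes of 0.07 to 0.12 with none called. Gpi1, glucose-6-phosphate isomerase and the most abundant of them per length, had 809.9, 644 and 632 CPM in the libraries labelled Vdbp and 649, 609 and 661 CPM in the empty-vector libraries. The first of these values stood apart and the others overlapped. The log2 fold change of 0.12 (SE 0.11) was −0.04 without both outlying libraries.

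Phosphofructokinase catalyses the committed step of glycolysis, and its 3 subunit genes had log2 fold changes of 0.08 to 0.43. Pfkl (ENSMUSG00000020277, chromosome 10, 77986947 to 78010083, minus strand) had 167, 136 and 115 CPM in the libraries labelled Vdbp, against 102, 88.2 and 120.1 CPM in the empty-vector libraries. Vdbp replicate 3 lay below empty-vector replicate 3, and the other libraries kept the groups apart. The log2 fold change was 0.43 (95% confidence interval 0.11 to 0.75, unadjusted p 0.0119, adjusted p 0.781 in edgeR's quasi-likelihood test), and it was 0.17 without both outlying libraries. With no filter on low counts, over 24135 genes, its adjusted p in the same edgeR test was 0.0359. That fit also called Gapdh, in which a single library was raised, so its p-values may not cover the spread between libraries. Pfkp, the most abundant of the 3, had 414, 399.9 and 362 CPM in the libraries labelled Vdbp, against 358, 360.3 and 397 CPM in the empty-vector libraries, and these overlapped. Its log2 fold change was 0.08 (SE 0.09). With the length and GC offset the values were 0.32 for Pfkl and 0.16 for Pfkp, closer together than without it.

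The enzymes that make and break fructose-2,6-bisphosphate, the activator of phosphofructokinase, included the gene with the smallest p of the 36. Pfkfb3 (ENSMUSG00000026773, chromosome 2, 11471433 to 11554077, minus strand), whose enzyme favours synthesis of the activator, had 88.7, 84.9 and 86.1 CPM in the libraries labelled Vdbp, against 117, 116 and 102 CPM in the empty-vector libraries. All 3 libraries labelled Vdbp lay below all 3 empty-vector libraries, against the direction of most other genes of the pathway. The log2 fold change was −0.36 (95% confidence interval −0.57 to −0.16, unadjusted p 0.00219, adjusted p 0.781 in edgeR's quasi-likelihood test). It stayed between −0.43 and −0.33 in all 18 alternatives, including −0.36 without both outlying libraries and −0.35 with the length and GC offset, with adjusted p-values of 0.205 or more. Pfkfb2, an isoenzyme at a low level, had 6.47, 7.11 and 6.96 CPM in the libraries labelled Vdbp, against 5.29, 5.98 and 6.03 CPM in the empty-vector libraries. These did not overlap either, in the other direction, with a log2 fold change of 0.25 (SE 0.16, unadjusted p 0.143), and 68.7% of the 100-base windows of its coding sequence also occur in another gene model, Gm29427. That gene model had 0 counts in all 6 libraries. Pfkfb1 and Pfkfb4 had log2 fold changes of 0.04 and 0.11 and overlapped between the groups.

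From aldolase to pyruvate kinase 9 of 10 genes had a log2 fold change above 0, with a median of 0.17, and none was called. Tpi1, which interconverts the triose phosphates, had 1417, 1238 and 1169 CPM in the libraries labelled Vdbp, against 1121, 986 and 1110.1 CPM in the empty-vector libraries. The groups did not overlap, and the log2 fold change was 0.25 (SE 0.10, unadjusted p 0.035, adjusted p 0.781 in edgeR's quasi-likelihood test). Without both outlying libraries it was 0.11. Pkm (chromosome 9, 59656368 to 59679375, plus strand) had 6206, 5020.5 and 4772 CPM in the libraries labelled Vdbp, against 4607, 4015 and 4964 CPM in the empty-vector libraries. Vdbp replicate 3 lay below empty-vector replicate 3, and the log2 fold change of 0.24 (SE 0.12) was 0.03 without both outlying libraries. Aldoa, Aldoc, Pgk1, Pgam1, Eno1 and Eno2 all overlapped between the groups, with log2 fold changes of −0.03 (Eno2) to 0.18 (Aldoc).

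Gapdh and Eno1b had the largest log2 fold changes, and most of their sequence is shared with other genes. Gapdh (ENSMUSG00000057666, chromosome 6, 125161715 to 125166467, minus strand), the dehydrogenase that follows the triose phosphates, had 458, 3869 and 378 counts in the libraries labelled Vdbp, against 348, 369 and 440 counts in the empty-vector libraries. On the CPM scale these were 28.5, 231 and 24.1 in the libraries labelled Vdbp, against 21.4, 22.3 and 26.0 in the empty-vector libraries. A single library, Vdbp replicate 2, stood far above the other 5, which overlapped. The log2 fold change was 2.03 (95% confidence interval 0.57 to 3.48, adjusted p 0.781 in edgeR's quasi-likelihood test), and 0.18 without Vdbp replicate 2. With no filter on low counts its adjusted p in the same edgeR test was 2.92e-51. As a single library was raised, that p-value does not cover the spread between the libraries labelled Vdbp. Per length Gapdh was listed far below its pathway neighbours Tpi1 and Pgk1.

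The principal Gapdh transcript shared 78.0% of its 100-base windows, and 100% of those within its coding sequence, with other GENCODE M21 genes. The stretch given for it among the sequences occurs in 40 other genes. It was picked for occurring in many genes, so it need not be typical of the transcript. In all, 86 genes shared a window with Gapdh, of which 82 were processed pseudogenes, copies of a messenger RNA inserted elsewhere in the genome. These 82 had 1920, 1454 and 1583 counts in sum in the libraries labelled Vdbp, and 1198, 1018 and 1433 counts in the empty-vector libraries. The groups did not overlap. On the CPM scale the sums were 119.5, 86.9 and 101 in the libraries labelled Vdbp, against 73.6, 61.5 and 84.8 in the empty-vector libraries. The nearest values of the groups were 86.9 and 84.8 CPM. The sum was highest in Vdbp replicate 1 and lowest in empty-vector replicate 2, the outlying libraries, whose part in it was not tested. Of the 14 pseudogenes with enough counts to be tested, 0 were called in edgeR's quasi-likelihood test, 12 had a log2 fold change above 0 and 2 below it, and the values ran from −0.998 (Gm8318, SE 0.57) to 0.73 (Gm7336, SE 0.21) with a median of 0.36. The groups did not overlap in 2 of them, Gm7336 and Gm5559 (0.54, SE 0.18), each higher in the libraries labelled Vdbp. Of all tested genes 5.26% were higher in this way, and 48.7% had a log2 fold change above 0. The copies share sequence with Gapdh and are not independent observations. How reads that match several genes were counted is not given in the sources used here, so reads of Gapdh and of its copies cannot be told apart.

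**Figure D4:**
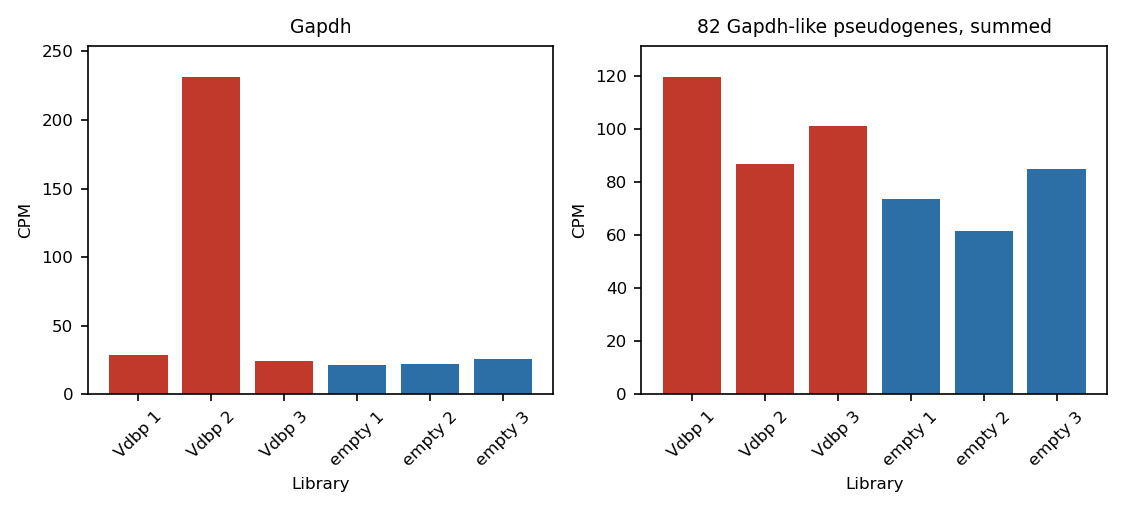
CPM of Gapdh (left panel) and of the sum of the 82 pseudogenes that share a 100-base window with it (right panel) in each library; red bars are libraries labelled Vdbp and blue bars empty-vector libraries. Gapdh reaches 231 CPM in Vdbp replicate 2, with the 5 remaining libraries at 21.4 to 28.5 CPM, and the pseudogene sum lies at 86.9 to 119.5 CPM in the libraries labelled Vdbp against 61.5 to 84.8 CPM in the empty-vector libraries.

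Eno1b (ENSMUSG00000059040, chromosome 18, 48045335 to 48048378, plus strand), annotated as protein-coding and named for its likeness to Eno1, had 188, 123 and 195 CPM in the libraries labelled Vdbp, against 116, 121 and 121 CPM in the empty-vector libraries. Vdbp replicate 2 lay just above the empty-vector libraries and the other 2 well above them, so the groups did not overlap, though they did after the length and GC offset. The log2 fold change was 0.49 (95% confidence interval 0.17 to 0.82, unadjusted p 0.00591, adjusted p 0.781 in edgeR's quasi-likelihood test), and with no filter on low counts its adjusted p was 0.00415. The last value comes from the fit that called Gapdh although a single library was raised, and may not cover the spread between libraries. Of its 100-base windows 73.4% occur in other genes, most of them in Eno1, of which 59.0% of windows are shared. Eno1 had 4835, 3734 and 3953 CPM in the libraries labelled Vdbp, against 4199.6, 3738 and 3670.3 CPM in the empty-vector libraries. Its groups overlapped, with a log2 fold change of 0.11 (SE 0.12). The pair of processed pseudogenes that also match Eno1 had 37.9, 30.8 and 24.6 CPM in sum in the libraries labelled Vdbp, against 17.5, 14.97 and 24.5 CPM in the empty-vector libraries.

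Shared sequence was not limited to these genes. Of the 36 genes, 15 shared at least 1 window of 100 bases with another gene, and 4 shared over 50% of theirs, Pgk1 with 67.0% being the remaining one. All coding windows of Pgk1 and Pgam1 also occurred in other genes. The processed pseudogenes among these had summed counts that were small beside their own, for Pgk1 7.28, 4.48 and 6.20 CPM in the libraries labelled Vdbp, against 4.61, 4.71 and 4.97 CPM in the empty-vector libraries. The median log2 fold change without the genes that shared windows was 0.11, against 0.12 with them.

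Pgp had the second smallest p of the pathway genes and shared no 100-base window with another gene. Pgp (ENSMUSG00000043445, chromosome 17, 24470473 to 24471591, plus strand) encodes a phosphatase that clears phosphoglycolate and side products of glycolytic enzymes that would otherwise inhibit the pathways. It had 79.1, 71.4 and 66.9 CPM in the libraries labelled Vdbp, against 51.9, 48.4 and 60.0 CPM in the empty-vector libraries. All 3 libraries labelled Vdbp lay above all 3 empty-vector libraries. The log2 fold change was 0.44 (95% confidence interval 0.19 to 0.69, unadjusted p 0.00229, adjusted p 0.781 in edgeR's quasi-likelihood test). It lay between 0.30 and 0.53 in the 18 alternatives, with an adjusted p of 0.0686 or more, and was 0.32 with the length and GC offset.

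The lactate genes Ldha, Slc16a1 and Slc16a3 had log2 fold changes of 0.01 to 0.31. Ldha (ENSMUSG00000063229, chromosome 7, 46841475 to 46855627, plus strand) had 2876, 2533 and 2468 CPM in the libraries labelled Vdbp, against 2281, 2282 and 2385 CPM in the empty-vector libraries. The groups did not overlap, and the log2 fold change was 0.18 (SE 0.10, unadjusted p 0.0887, adjusted p 0.781 in edgeR's quasi-likelihood test). It was 0.11 without Vdbp replicate 1 and 0.10 without both outlying libraries. Slc16a3, the exporter typical of glycolytic cells, had 852, 668 and 602 CPM in the libraries labelled Vdbp, against 574, 499 and 640.2 CPM in the empty-vector libraries. Here Vdbp replicate 3 lay within the empty-vector range, and the log2 fold change of 0.31 (SE 0.14) was 0.06 without both outlying libraries. Slc16a1, the more widely expressed carrier of lactate and pyruvate, had a log2 fold change of 0.01 (SE 0.11).

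In the oxidative arm of the pentose phosphate pathway, G6pdx, Pgls and Pgd had log2 fold changes of 0.11, 0.16 and 0.24. Pgd, phosphogluconate dehydrogenase, one source of NADPH, had 672, 557 and 528 CPM in the libraries labelled Vdbp, against 503, 467 and 514 CPM in the empty-vector libraries. The groups did not overlap (SE 0.11, unadjusted p 0.0438, adjusted p 0.781 in edgeR's quasi-likelihood test). G6pdx, glucose-6-phosphate dehydrogenase, which controls entry into this arm, had 293, 263 and 267 CPM in the libraries labelled Vdbp, against 261, 247 and 255 CPM in the empty-vector libraries. Its groups did not overlap either, by a margin of less than 2 CPM, and after the length and GC offset they did. The log2 fold changes without both outlying libraries were 0.09 for Pgd and 0.03 for G6pdx.

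In the non-oxidative arm all 4 genes overlapped between the groups. Taldo1, the most abundant per length, had 269, 254 and 246 CPM in the libraries labelled Vdbp, against 249, 239 and 241 CPM in the empty-vector libraries, with a log2 fold change of 0.08 (SE 0.09). Tkt, transketolase, and Rpia had log2 fold changes of 0.15 and 0.07. Rpe, ribulose-phosphate epimerase, was among the 3 genes below 0, with Pfkfb3 and Eno2, at −0.14 (SE 0.13).

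**Figure D5:**
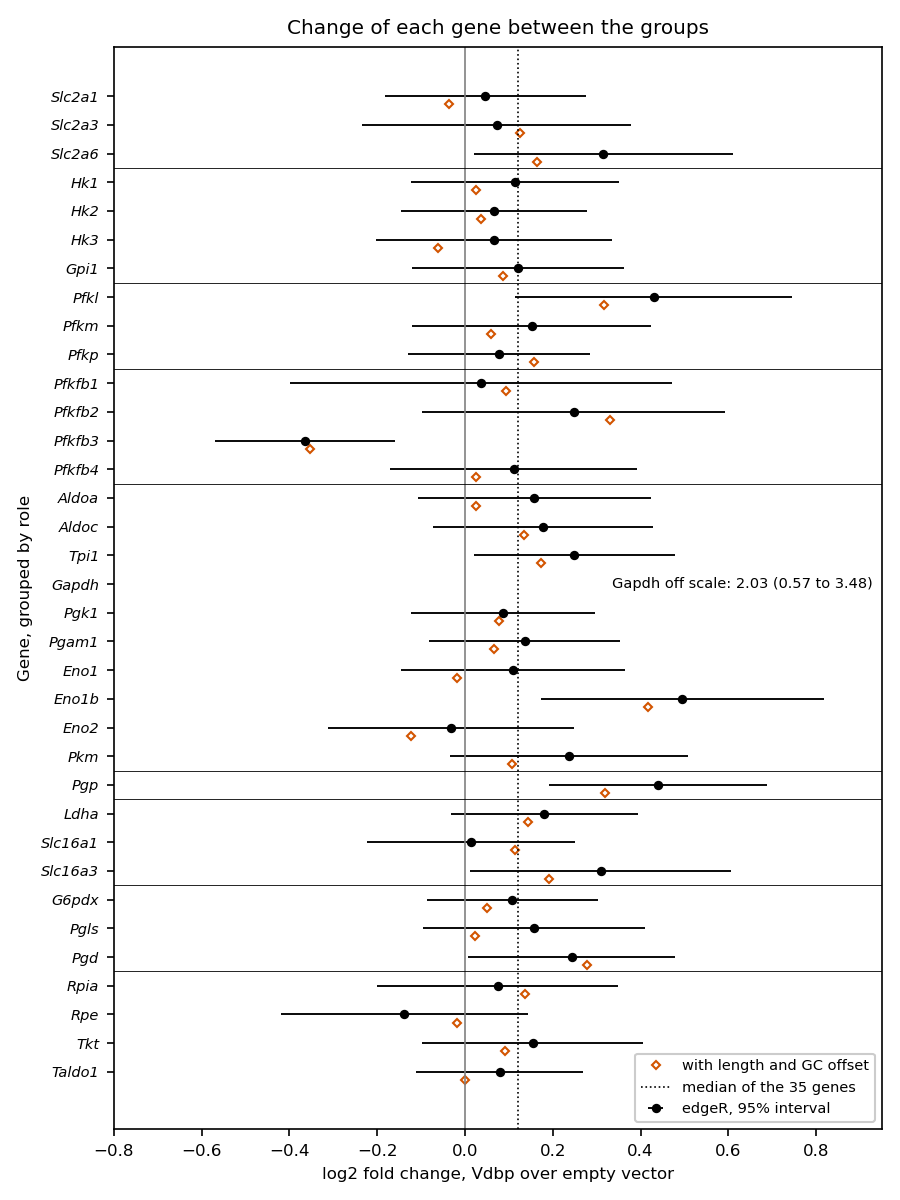
Log2 fold change (Vdbp over empty vector) of the 35 tested genes from edgeR with its 95% confidence interval (black) and the value with the length and GC offset (open diamonds); the dotted line is the median of 0.12. Gapdh is off the scale at 2.03 (0.57 to 3.48), Pfkfb3 is the only interval wholly below 0, and 28 of the diamonds lie above 0.

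Neighbouring genes of carbohydrate metabolism, taken whole from 8 lists, were split evenly in direction. Of 105 such genes 75 were tested and 0 were called in edgeR's quasi-likelihood test, 36 had a log2 fold change above 0 and 39 below it, and their median was −0.00. Unadjusted p-values under 0.05 were seen for 4 of the 75 (5.33%), near the 5.35% of all tested genes. These were Pck2 (0.28), the mitochondrial phosphoenolpyruvate carboxykinase gene, and Phgdh (0.25), which opens the serine synthesis branch, on the higher side, and Gbe1 (−0.28), glycogen branching enzyme, and Cybb (−0.27), the catalytic subunit of the phagocyte NADPH oxidase, on the lower side. The highest list medians were 0.12 for 7 tested isoenzymes outside the 36 genes, 0.09 for 5 other hexose and monocarboxylate carriers and 0.24 for 4 genes of gluconeogenesis and fructose bisphosphatases. The summed CPM of each of these lists was highest in Vdbp replicate 1 and lowest in empty-vector replicate 2, the outlying libraries. For the isoenzymes these sums were 243 CPM and 190 CPM. No list median is given without these libraries, and their part in the medians was not tested. Their most abundant tested genes per length were Eno3 (25.7 ± 5.13 FPKM in libraries labelled Vdbp and 21.7 ± 3.08 FPKM in empty-vector libraries), Bsg (419 ± 53.9 FPKM in libraries labelled Vdbp and 397 ± 22.9 FPKM in empty-vector libraries) and Tigar (29.9 ± 1.66 FPKM in libraries labelled Vdbp and 28.01 ± 2.66 FPKM in empty-vector libraries), with SDs over 3 libraries each. Bsg is the chaperone of the lactate carriers, and Tigar lowers fructose-2,6-bisphosphate.

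The other lists had medians closer to 0 or below it. Pyruvate entry into mitochondria had 3 higher and 9 lower genes and a median of −0.06, and the regulators of the pathway 5 higher and 10 lower genes and a median of −0.05. The outlying libraries were also the ends for pyruvate entry, in the reverse order. Its summed level was lowest in Vdbp replicate 1 (827 CPM) and highest in empty-vector replicate 2 (975 CPM). Among these regulators Hif1a, a hypoxia-inducible factor subunit, had a log2 fold change of −0.21 (SE 0.16), Myc of −0.14 (SE 0.13) and Txnip, a brake on glucose uptake and the most abundant of them, of −0.08 (SE 0.09). Medians were −0.00 for glycogen, 0.08 for the hexosamine and serine branches and 0.01 for users of NADPH and glutathione. The most abundant genes of these lists were Dld (pyruvate entry, log2 fold change −0.16), Ugp2 (glycogen, −0.26), Phgdh and Cyba (NADPH oxidase, 0.17), and none was called.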

How the data were processed

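Messenger RNA libraries from 6 DC2.4 samples were compared. The authors deposited counts per gene, unnormalised, and FPKM for the same genes and libraries; per the submitters' processing notes, HISAT2 and StringTie were used (no version), while the counting tool, the build and the treatment of multi-mapping reads were not given in the sources used here. FPKM values, as deposited by the authors, equalled the count divided by gene length and by 1 constant per library (largest relative gap 5.11e-15). Of the gene identifiers 99.8% were in GENCODE M21 (GRCm38), where 98.3% of them had identical start and end.

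The 36 genes, the other lists and the alternatives were chosen with earlier results of these data known, so no set test was run. In edgeR 4.0.16 (R 4.3.3) counts went through filterByExpr (minimum count 10, minimum total 15, minimum proportion 0.7), TMM scaling and the quasi-likelihood F test, with no term but group. Two-sided p-values received Benjamini-Hochberg adjustment over 12844 genes (threshold 0.05). CPM uses the TMM-adjusted library size. A count of 0 was read as allowing 3 counts, for counting error only. Values per library were given for genes whose groups did not overlap and for the highest FPKM per role. They were also given for the 6 largest log2 fold changes and for genes that earlier results had named. The most abundant gene of each other list was given with group means or a log2 fold change. All other genes with values were chosen after their values were seen. Transcript windows of 100 bases were searched on both strands in all GENCODE M21 transcripts. Alternatives were RLE and total-count scaling, DESeq2 1.42.0 on the same genes, limma-voom (limma 3.58.1), other filters, the replicate number as a block, a length and GC offset (mgcv 1.9.3), limma on log2(FPKM + 1) and log2(FPKM + 0.1), and leaving out libraries. Leaving out both outlying libraries was added after the values were seen.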

Additional observations from a re-analysis of the deposited data

How the results depend on the processing

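The median log2 fold change of the pathway genes kept its sign in every alternative run: it lay between 0.11 and 0.12 with other scalings, filters, DESeq2, limma-voom and FPKM, at 0.09 with the length and GC offset, between 0.05 and 0.18 when 1 library was left out, and at 0.03 without Vdbp replicate 1 and empty-vector replicate 2. Single genes were less steady: of 35, 18 kept their sign in all 18 alternatives and 17 changed it in at least 1. No pathway gene was called except with no filter on low counts, where 3 were (Gapdh, Eno1b and Pfkl). That fit called Gapdh although a single library was raised, so its calls may not cover the spread between libraries. Over all genes, edgeR called 89 with no filter, 2 with the length and GC offset, 0 to 22 when 1 library was left out (22 without empty-vector replicate 3) and 2 without both libraries, and DESeq2 called 11 (2 higher, 9 lower). The number of genes with an unadjusted p under 0.05 was 687, and it was 1375 with no filter, 1144 with the offset and 258 to 1532 when 1 library was left out; of the pathway genes there were 9, 4 with limma on FPKM at either pseudocount, 5 to 9 when 1 library was left out and 5 without both. Pathway genes whose groups did not overlap numbered 8, against 10.9% of all tested genes, 8 to 17 when 1 library was left out, against 14.8% to 28.5%, and 16 without both, against 32.5%. The causes of the other shifts were not tested. With the replicate number as a block the median was 0.11, with 0 genes called and 695 at an unadjusted p under 0.05, and with block and offset together it was 0.09, 0 and 866. Deviations of same-numbered libraries correlated at 0.144, 0.0341 and −0.265, so the numbers were not taken to pair samples. The difference in the pathway's share of counts was 0.260 percentage points, 0.135 to 0.343 when 1 library was left out. Isoenzyme shares moved with the length used, as for Pfkp, whose share of counts was 69.0% in the libraries labelled Vdbp and 73.0% in the empty-vector libraries.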
